A study of Rattus norvegicus with 743 samples.

Results

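Telcagepant and MK-3207 are antagonists of the receptor for calcitonin gene-related peptide (CGRP), and their effects on the liver transcriptome were measured in male rats by RNA sequencing. The members were taken by label: the 4 libraries labelled telcagepant (400 mg/kg/day), and the 4 plus 4 libraries labelled MK-3207 at 600 and 750 mg/kg/day, which makes 12 of the 743 libraries of a toxicogenomics series. Each group was compared with the 4 vehicle libraries that carried the same study, batch number (3 for all 20 libraries) and vehicle label. The telcagepant study used Sprague Dawley rats, and its vehicle was Imwitor 742/Polysorbate 80, an oily excipient of medium-chain glycerides with a surfactant, which no other vehicle group of the series received. The MK-3207 study used Han Wistar rats, and both doses shared 1 set of 4 vehicle rats given 0.5% methylcellulose, an inert suspending agent. The dose unit is written mkd in the labels and is read here as mg/kg/day. All rats were males dosed for 4 days and killed 24 h after the last dose, with 1 library per rat. Their age and genotype were not in the labels used here. Because dose, strain and vehicle all differed between the compounds, their values are set side by side and the difference between compounds was not tested.

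The CGRP receptor is a dimer of the calcitonin receptor-like receptor (Calcrl) and a small partner protein (Ramp1), and it couples to Gs and cAMP. CGRP widens blood vessels of the meninges and transmits pain signals, which is why antagonists were developed against migraine. Work on both compounds stopped after rises of liver enzymes in blood during clinical trials. In the liver, drugs at high doses are met by xenobiotic sensors: CAR and PXR induce Cyp2b and Cyp3a enzymes, AhR induces Cyp1a enzymes, and NRF2 induces glutathione and quinone metabolism. PPARalpha, the fatty acid sensor, drives peroxisomal and mitochondrial fat oxidation, SREBP2 drives cholesterol synthesis, and the unfolded protein response raises chaperones of the endoplasmic reticulum (ER).

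Values are CPM, a count scaled to the total of its library, scaled with TMM factors over the rats of 1 study. Folds are on the log2 scale with their standard error (SE), from edgeR's quasi-likelihood test of 4 against 4 rats, and a gene was called at an adjusted p under 0.05 (Benjamini-Hochberg over all genes tested). Each comparison was refitted 8 times, each time without 1 rat. A call is said to have held in k of 8 such leave-one-out fits. Library depth ran from 14.9 to 44.6 M counts (M for mega) and RNA integrity numbers (RIN) from 7.9 to 8.99. Of 22 hepatocyte genes, 21 were matched and all of these were tested in each comparison, and albumin (Alb) read 93105, 92892, 98065 and 89208 CPM and 196320.0, 165030.0, 169340.0 and 147830.0 CPM in the 2 vehicle groups. The share of all genes tested that was called was 4.79% after telcagepant, 1.77% after MK-3207 at 600 and 3.08% at 750 mg/kg/day. Counts of members of a gene list are to be read against these shares.

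Some libraries stood apart and are named before the results. A set of 7 genes that separate the strains was taken from 146 other Sprague Dawley and 160 other Han Wistar male vehicle rats of the series. Sprague Dawley rats were on the Sprague Dawley side for 5 to 7 of these genes (median 7) and Han Wistar rats for 0 to 3 (median 0). The library labelled MK-3207 600 mg/kg/day replicate 4 was on the Sprague Dawley side for 7 of 7, although labelled Han Wistar, while the other 11 libraries of its study were there for 0 to 2. Its Aldh1a7, an aldehyde dehydrogenase, read 37.2 CPM against 0.0474 to 0.260 CPM in the other 11, and its Hsd17b2, a steroid dehydrogenase, read 623 CPM against 18.6 to 40.7 CPM. Neither gene is among the 7. Dbp, an output factor of the circadian clock, also stood apart, at 179 CPM against 7.86 to 8.18 CPM in the other rats at 600 mg/kg/day. The part of clock phase in the values of this library was not tested. Hsd17b2 also differed between the Sprague Dawley vehicle rats with unlike clock values, as given below, so it is no separate sign of strain. By the 7 genes this library goes against its strain label, yet its Gsta3 (76.1 CPM) and Cyp1a1 (105 CPM) lay with the treated rats. The count of calls at 600 mg/kg/day is therefore given with and without it, as are list counts that change without it, and results at 750 mg/kg/day come first. The 4 vehicle rats of the telcagepant study were on the Sprague Dawley side for 7 of 7 genes and the telcagepant rats for 6, 3, 4 and 5. Vehicle replicate 1 of the MK-3207 study, shared by both doses, had the lowest RIN of the 20 libraries (7.9). Its 10 most abundant genes held 29.7% of its counts, against 26.1 to 27.4% in the other vehicle rats of that study. Leaving it out raised the calls from 388 to 1371 at 750 and from 222 to 612 at 600 mg/kg/day, so results at 750 mg/kg/day also depend on a library that stood apart.

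**Figure D1:**
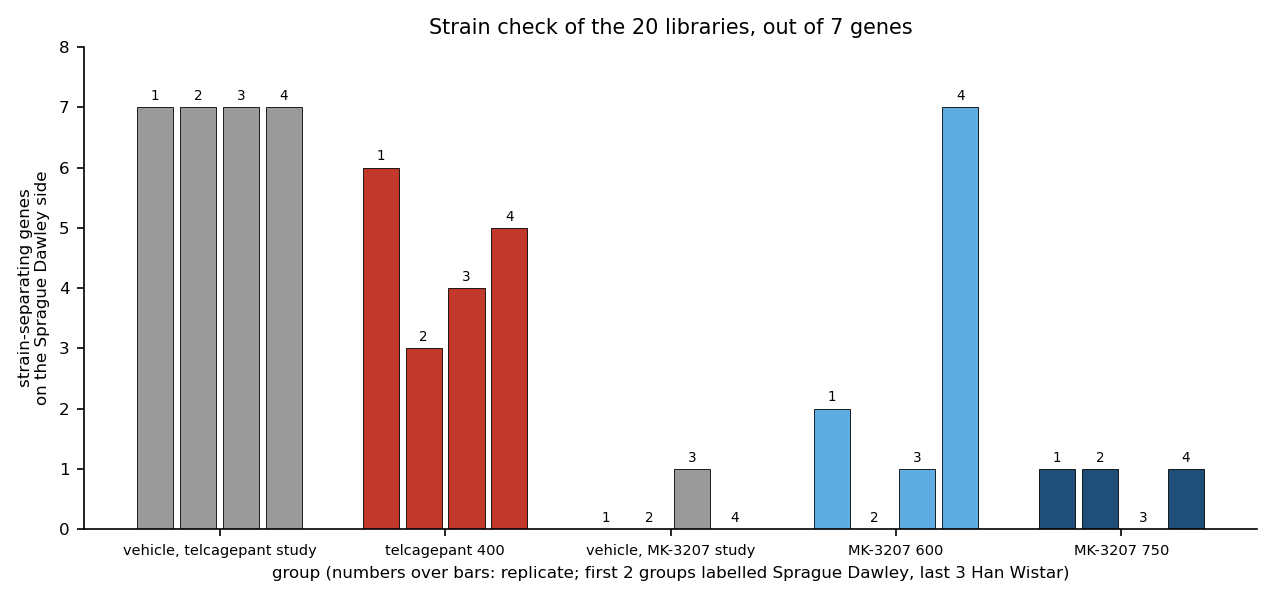
Bars give, for each of the 20 libraries on the horizontal axis, how many of 7 strain-separating genes lay on the Sprague Dawley side (vertical axis, number of genes). The library labelled MK-3207 600 mg/kg/day replicate 4 reaches 7 of 7, against 0 to 2 in the other 11 libraries labelled Han Wistar.

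Telcagepant replicates 2 and 3 differed from replicates 1 and 4. Hmox1, the heme-degrading stress enzyme, read 59.8, 957, 1828 and 88.6 CPM in telcagepant replicates 1 to 4 and 25.1, 24.5, 33.8 and 29.3 CPM in their vehicle rats. Results that rest on these animals are also given for replicates 1 and 4 alone, an alternative chosen after seeing the data. In the same study, clock genes split the vehicle group. Arntl, a core clock activator, read 40.4, 1.00, 4.63 and 3.55 CPM in the vehicle rats and 48.5, 48.1, 16.1 and 42.4 CPM after telcagepant, and Dbp, a clock output factor in opposite phase, read 4.21, 168, 89.9 and 102 CPM and 2.84, 0.676, 16.2 and 4.80 CPM. Vehicle replicate 1 thus lay with the treated rats for both genes, and the other 3 vehicle rats did not. The part of clock phase in the telcagepant results was not tested. Leaving out this rat gave 77 higher and 152 lower calls, among them 200 of the 608 calls made with all 8 rats.

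The targeted receptor was first examined in every sample. Calcrl read 46.5, 29.6, 41.8 and 47.7 CPM in the vehicle rats and 21.6, 19.1, 19.1 and 25.6 CPM after telcagepant, with no overlap. It fell (log2 fold change -0.96 ± 0.19, adjusted p = 0.0307), and the call held in 4 of 8 leave-one-out fits and was lost on leaving out any 1 of vehicle replicates 1, 3 and 4 or telcagepant replicate 2. In the MK-3207 study Calcrl read 27.6, 32.4, 29.3 and 33.3 CPM in vehicle rats, 28.0, 30.2, 21.6 and 24.7 CPM at 600 and 30.6, 28.7, 25.8 and 27.8 CPM at 750 mg/kg/day. These groups overlapped, with log2 differences of -0.22 ± 0.12 (adjusted p = 0.378) and -0.12 ± 0.10 (adjusted p = 0.522). In whole liver, fewer cells of a type and less RNA per cell cannot be told apart. Endothelial markers, from the cells known to carry Calcrl, had no called member by edgeR in any comparison (3 of 13 at an unadjusted p under 0.05 and 1 called by DESeq2, higher, after telcagepant) and summed to 468 to 737 (median 648) CPM in vehicle and 431 to 664 (median 593) CPM in telcagepant rats.

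Ramp1 read 6.50, 4.62, 4.41 and 4.51 CPM in vehicle and 3.98, 2.70, 0.997 and 2.11 CPM in telcagepant rats, groups that did not overlap, with a log2 difference of -1.03 ± 0.39 that missed the threshold (adjusted p = 0.130). Its log2 differences were -0.44 ± 0.23 and -0.50 ± 0.19 after MK-3207 at 600 and 750 mg/kg/day (adjusted p = 0.348 and 0.173). Ramp2, which turns Calcrl into an adrenomedullin receptor, differed by 0.76, 0.16 and 0.041 log2 units, none called. Crcp, an accessory protein of the receptor, differed by 1.28, 0.13 and 0.043, none called. Among the peptides, adrenomedullin (Adm) differed by 0.35, -1.13 and -0.65, none called, and adrenomedullin 2 (Adm2) by 3.63 after telcagepant (adjusted p = 0.137), while it was too low to test in the MK-3207 study. These calls are by edgeR. Of 6 genes of the CGRP receptor and ligand list tested after telcagepant, 5 had an unadjusted p under 0.05, and DESeq2 called 1 higher and 1 lower. Of 5 tested after MK-3207, 1 at 600 and 2 at 750 mg/kg/day had an unadjusted p under 0.05, and DESeq2 called 0 at either dose. Calca, which encodes CGRP, and Calcr, the calcitonin receptor, were at 0 in all 20 libraries, Calcb in 19, Iapp in 18 and Ramp3 in 7. A count of 0 allows up to 0.0673 to 0.201 CPM (3 counts of a library's total, for counting error only). Of 18 genes of cAMP and Gs signalling, 0 were called at either MK-3207 dose (edgeR; 3 at 600 and 2 at 750 mg/kg/day had an unadjusted p under 0.05, and DESeq2 called 1 and 0). Adcy10, the soluble adenylyl cyclase, is not on this list and was called higher at 750 mg/kg/day and lower after telcagepant, as given below. After telcagepant Prkar2a, a regulatory subunit of protein kinase A, rose by 1.31 ± 0.22 and Adcy6, an adenylyl cyclase, fell (-0.91 ± 0.19), at adjusted p of 0.0201 and 0.0336. These calls held in 4 and 3 of 8 leave-one-out fits, both being lost on leaving out any of vehicle replicates 1, 2, 3 and 4, and that of Adcy6 also without telcagepant replicate 2.

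After MK-3207 at 750 mg/kg/day 219 of 12602 genes rose (1.74%) and 169 fell (1.34%), with a median log2 difference of -0.0073 over all genes. At 600 mg/kg/day 135 of 12559 rose (1.07%) and 87 fell (0.693%), with a median of -0.0090, and without replicate 4 these counts were 214 and 137, with 190 of the 222 calls kept. Leaving out 1 rat at a time gave 94 (without 750 mg/kg/day replicate 4) to 1371 calls (without vehicle replicate 1) at 750, and 45 (without vehicle replicate 2) to 612 (without vehicle replicate 1) at 600 mg/kg/day. The plot of single rats shows 12 of these genes in all 5 groups. The genes with the largest changes were picked, for each comparison, only where the groups did not overlap. For these genes the lack of overlap follows from the choice and is no separate finding.

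**Figure D2:**
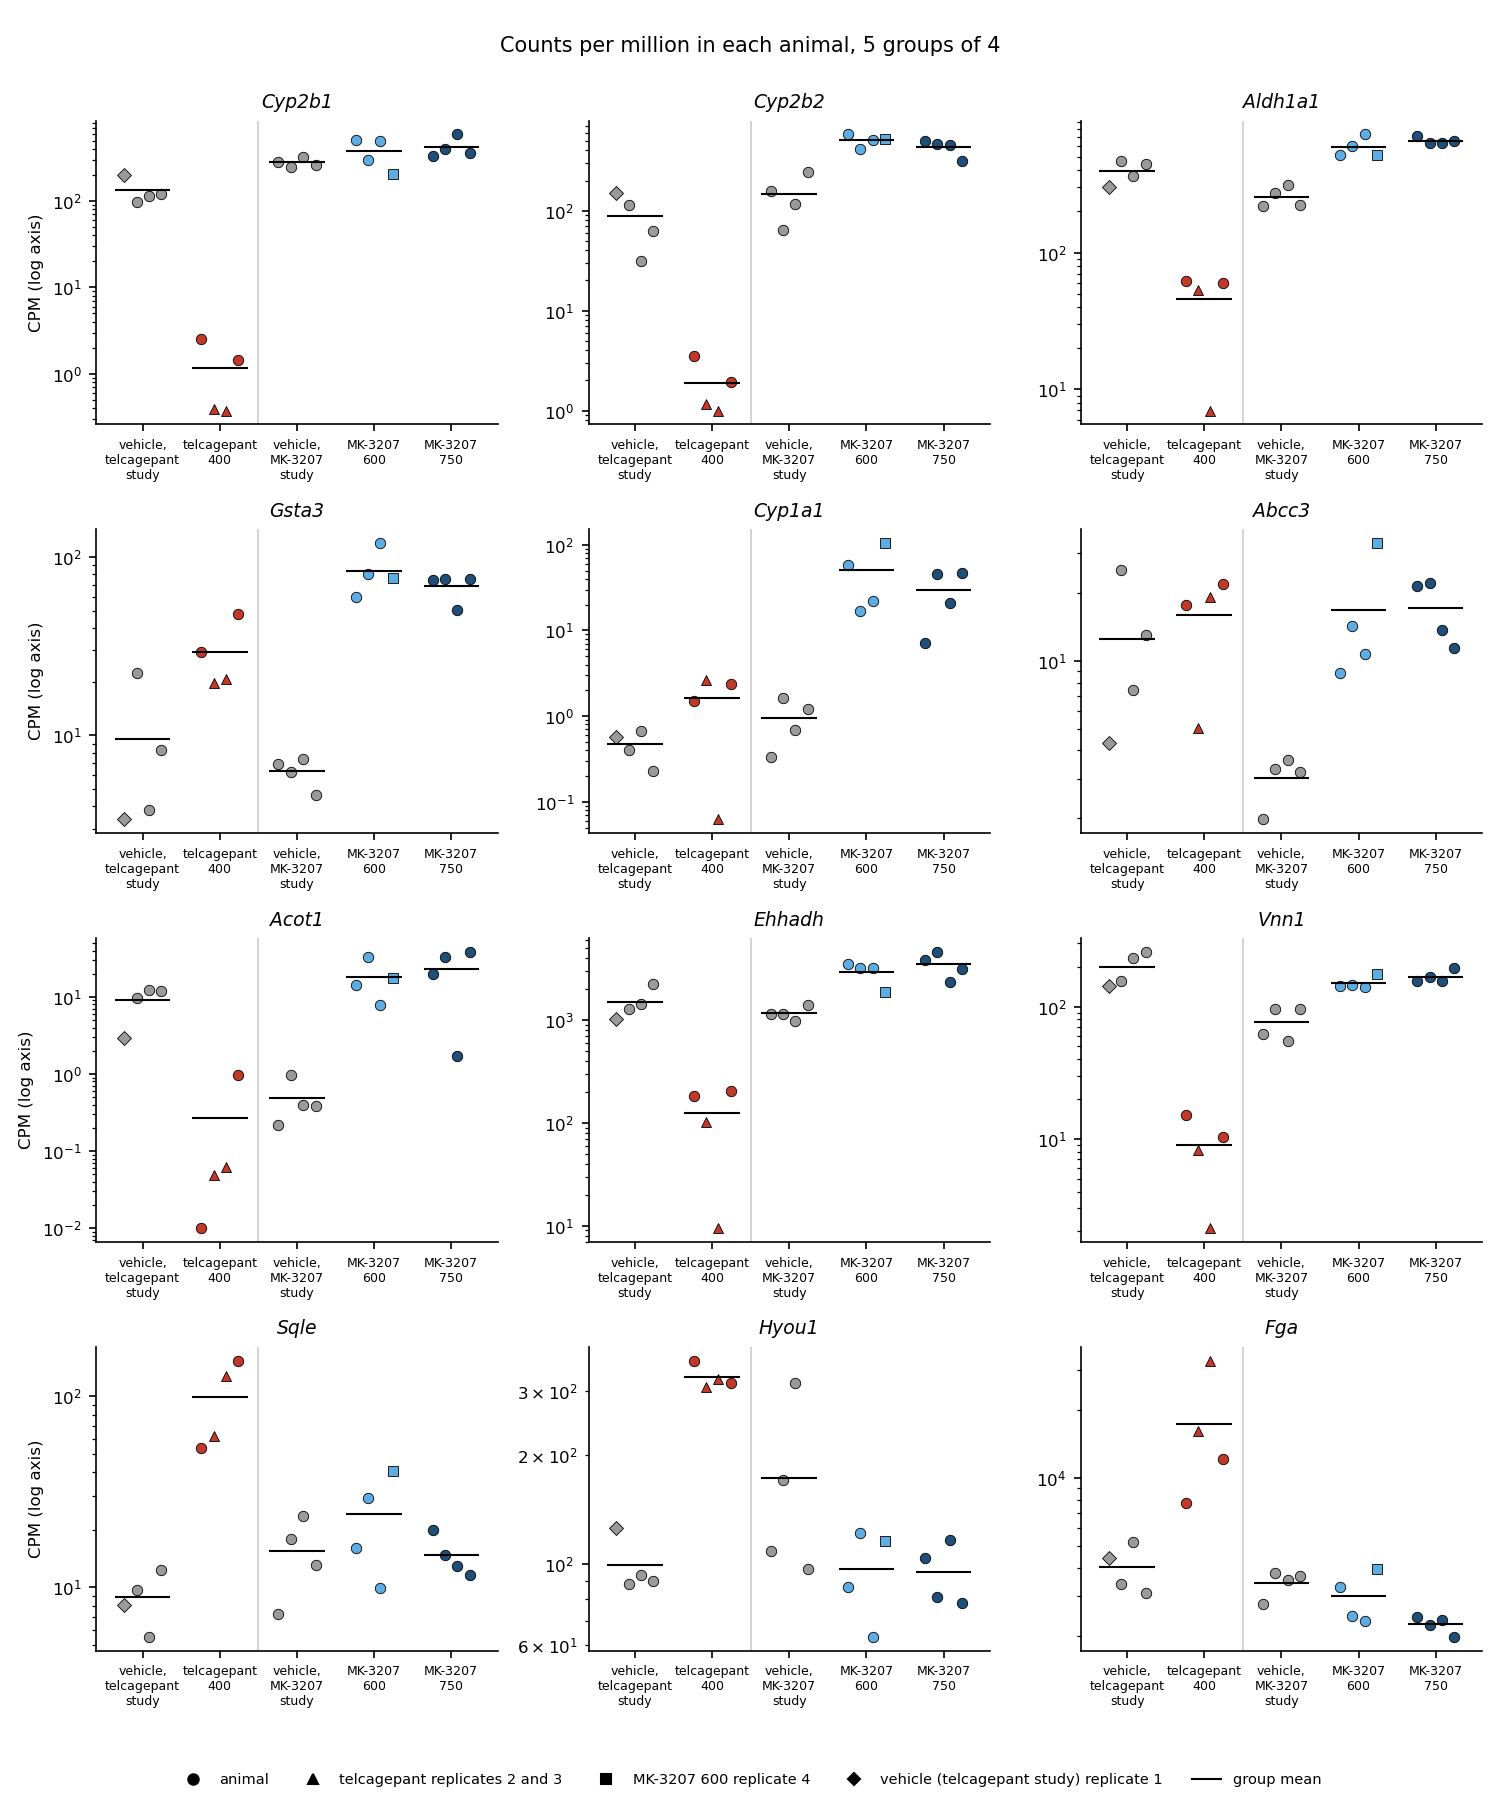
Each panel plots 1 gene, each point is 1 rat, the vertical axis is CPM on a log scale (a value of 0 is drawn at 0.01) and the horizontal axis gives the 5 groups; lines are group means, triangles are telcagepant replicates 2 and 3, the square is MK-3207 600 mg/kg/day replicate 4 and the diamond is replicate 1 of the telcagepant study's vehicle. Gsta3 lies between 50.3 and 119.9 CPM in the 8 MK-3207 rats, all above their vehicle rats, while Cyp2b1 lies below 3 CPM in the 4 telcagepant rats.

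Of the 17 CAR targets listed, 13 were matched and 12 tested: 7 rose and 0 fell at 750 mg/kg/day (median log2 fold change 0.79), and 6 rose and 0 fell at 600 (1.13; 6 higher and 0 lower without replicate 4, where 5 of the 6 calls were kept, Cyp2b2 was lost and Por was gained). Gsta3, a glutathione transferase, changed most among them. It read 6.93, 6.21, 7.39 and 4.63 CPM in vehicle rats, 73.9, 75.8, 50.3 and 75.8 CPM at 750 and 59.6, 80.8, 119.9 and 76.1 CPM at 600 mg/kg/day, so the groups were far apart. It rose at 750 (log2 fold change 3.45 ± 0.18, adjusted p = 3.78e-05) and 600 mg/kg/day (3.74 ± 0.24, adjusted p = 0.000217), and both calls held in 8 of 8 leave-one-out fits. Abcc3, an export pump of the basolateral membrane, read 1.98, 3.32, 3.62 and 3.21 CPM in vehicle rats, 21.4, 22.1, 13.7 and 11.4 CPM at 750 and 8.80, 14.2, 10.7 and 33.2 CPM at 600 mg/kg/day. All 8 treated rats were above all 4 vehicle rats (2.49 ± 0.26, adjusted p = 0.00450, and 2.47 ± 0.44, adjusted p = 0.0329). The call at 750 held in 8 of 8 leave-one-out fits, and that at 600 held in 3 of 8 leave-one-out fits and was lost on leaving out any 1 of vehicle replicates 1, 2, 3 and 4 or 600 mg/kg/day replicate 2.

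Ephx1, the microsomal epoxide hydrolase, read 320.5, 293, 247 and 204 CPM in vehicle rats, 814, 756, 588 and 850.3 CPM at 750 and 993, 702, 1134 and 2169 CPM at 600 mg/kg/day. Here the highest value belonged to 600 mg/kg/day replicate 4. The log2 fold change was 2.24 ± 0.33 with that rat and 1.84 ± 0.20 without it (adjusted p = 0.0152 and 0.00486), and 1.50 ± 0.17 at 750 mg/kg/day, a call that held in 8 of 8 leave-one-out fits. Cyp2b2, a phenobarbital-inducible cytochrome, read 156, 64.5, 117 and 244 CPM in vehicle rats, 498, 461, 454 and 317 CPM at 750 and 580.0, 414, 511 and 524 CPM at 600 mg/kg/day. It rose by 1.57 ± 0.35 and 1.81 ± 0.35, close to the threshold (adjusted p = 0.0462 and 0.0397), and the call at 750 held in 1 of 8 leave-one-out fits and was lost on leaving out any 1 of vehicle replicates 1, 2 and 3 or 750 mg/kg/day replicates 1, 2, 3 and 4. The call at 600 held in 2 of 8 leave-one-out fits and was lost on leaving out any 1 of vehicle replicates 1 and 3 or 600 mg/kg/day replicates 1, 2, 3 and 4, and without replicate 4 its adjusted p was 0.0535. Its near-identical neighbour Cyp2b1, the other classical CAR target, read 282, 251, 327 and 265 CPM in vehicle rats, 333, 402, 594 and 358 CPM at 750 and 504, 302, 491 and 207 CPM at 600 mg/kg/day. At 750 mg/kg/day these groups did not overlap, but Cyp2b1 was called at neither dose (0.58 ± 0.18, adjusted p = 0.102, and 0.42 ± 0.26, adjusted p = 0.427). Since the 2 genes share sequence, reads may be split between them, and each value is uncertain to that extent.

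Aldh1a1, a retinal dehydrogenase, rose by 1.36 ± 0.13 at 750 and 1.21 ± 0.17 at 600 mg/kg/day, and both calls held in 8 of 8 leave-one-out fits. Gstm1 rose by 0.76 ± 0.15 and 1.05 ± 0.17. Por, the electron donor of all microsomal cytochromes P450, rose at 750 (0.81 ± 0.19, adjusted p = 0.0487; it held in 1 of 8 leave-one-out fits and was lost on leaving out any 1 of vehicle replicates 1, 2 and 3 or 750 mg/kg/day replicates 1, 2, 3 and 4) and differed by 1.45 ± 0.32 at 600 mg/kg/day (adjusted p = 0.0629). The other members tested were not called at either dose: at 750 and 600 mg/kg/day the log2 differences were 0.33 and 0.42 for Cyp2c6v1, 0.24 and -0.018 for Cyp2c7, 0.62 and 1.02 for Alas1, and 0.36 and 0.96 for Gadd45b.

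Of 12 PXR targets 10 were matched. Of these 10, all tested, 2 rose at 750 (median 0.89) and 3 at 600 mg/kg/day (median 0.82; 3 higher and 0 lower without replicate 4), and 0 fell. Ces2a, a carboxylesterase, rose by 1.27 ± 0.21 and 1.19 ± 0.14 (adjusted p = 0.0170 and 0.00486). Without vehicle replicate 2 the call at 750 was lost. Ugt1a1, the bilirubin glucuronidating enzyme, rose by 0.92 ± 0.11 and 0.82 ± 0.13. Cyp3a23/3a1, the classical PXR target in rats, rose at 600 (0.98 ± 0.19, adjusted p = 0.0397; it held in 2 of 8 leave-one-out fits and was lost on leaving out any 1 of vehicle replicates 2, 3 and 4 or 600 mg/kg/day replicates 1, 2 and 3) and differed by 0.86 ± 0.24 at 750 mg/kg/day (adjusted p = 0.0849). The log2 differences of the uncalled members at 750 and 600 mg/kg/day were 0.42 and -0.27 for Cyp3a9, 0.96 and 0.82 for Cyp3a18, -0.43 and -0.00097 for Cyp3a62, and -0.59 and -0.011 for Abcc2. They were 0.68 and 0.59 for Slco1a4, 1.21 and 1.41 for Gsta2, and 2.83 and 3.34 for Cyp2c24.

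Among AhR targets Cyp1a1 had the largest rise. This enzyme, which oxidises planar aromatic compounds, read 0.330, 1.63, 0.685 and 1.20 CPM in vehicle rats, 7.16, 45.1, 20.7 and 47.0 CPM at 750 and 58.4, 17.0, 22.0 and 105 CPM at 600 mg/kg/day. All treated rats were above all vehicle rats, as the rule that named this gene requires, with a wide spread among the treated. The log2 fold changes were 4.98 ± 0.73 (adjusted p = 0.0170, lost without vehicle replicate 3) and 5.73 ± 0.77 (adjusted p = 0.0152), the second of which held in 5 of 8 leave-one-out fits and was lost on leaving out any 1 of vehicle replicates 2, 3 and 4. Ugt1a6, a phenol glucuronosyltransferase, read 11.3, 19.8, 10.5 and 10.3 CPM in vehicle rats, 57.8, 53.5, 54.5 and 76.7 CPM at 750 and 74.3, 56.2, 61.8 and 109 CPM at 600 mg/kg/day, without overlap (2.23 ± 0.22 and 2.55 ± 0.28, adjusted p = 0.00448 and 0.00486), and both calls held in 8 of 8 fits. Ugt1a enzymes are made from 1 locus with shared exons, so reads may be split among them. Nqo1, a quinone reductase under AhR and NRF2, rose at 600 (1.70 ± 0.30, adjusted p = 0.0311; it held in 2 of 8 leave-one-out fits and was lost on leaving out any 1 of vehicle replicates 1, 2 and 3 or 600 mg/kg/day replicates 1, 2 and 3), and at 750 mg/kg/day the difference was 1.19 ± 0.57 (adjusted p = 0.287). Cyp1a2, the liver's main constitutive AhR target, differed by -0.35 ± 0.19 and 0.0087 ± 0.18 (adjusted p = 0.327 and 0.988). Of 7 AhR targets tested, 2 rose at 750 and 3 at 600 mg/kg/day, and 0 fell. Without 600 mg/kg/day replicate 4 the same 3 rose and 1 fell, Lrat (-0.52 ± 0.11, adjusted p = 0.0492).

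NRF2 targets rose at both doses: of 25 tested, 10 rose and 0 fell at 750 (median 0.52) and 10 rose and 0 fell at 600 mg/kg/day (median 0.74), and without 600 mg/kg/day replicate 4 all 10 of these kept their call. When 1 rat was left out, the number that rose ran from 7 (without any 1 of vehicle replicates 2 and 4) to 13 (without vehicle replicate 1) at 750 and from 3 (without vehicle replicate 2) to 11 (without vehicle replicate 1) at 600 mg/kg/day. Akr7a3, an aflatoxin aldehyde reductase, read 37.4, 34.6, 25.3 and 25.5 CPM in vehicle rats, 96.3, 133, 105 and 257 CPM at 750 and 252, 106, 194 and 218 CPM at 600 mg/kg/day. All 8 treated rats lay above the vehicle rats, and both calls held in 8 of 8 fits (2.27 ± 0.32 and 2.65 ± 0.26). Me1, the malic enzyme that yields NADPH, rose by 1.61 ± 0.16 and 1.79 ± 0.11, and its calls likewise held in 8 of 8 fits. Gsta5, Gsr (glutathione reductase) and Aox1 rose by 1.57, 1.01 and 0.91 at 750 and by 1.92, 0.91 and 0.96 at 600 mg/kg/day. At 750 mg/kg/day Srxn1, which repairs oxidised peroxiredoxins, rose by 1.02 ± 0.19 (it held in 2 of 8 leave-one-out fits and was lost on leaving out any 1 of vehicle replicates 2, 3 and 4 or 750 mg/kg/day replicates 1, 2 and 4).

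The antioxidant response element, the DNA site that NRF2 binds, has the core TGACNNNGC. It was searched on both strands in the 250 bases before the start of each gene in RefSeq promoters of build GRCr8, where 3027 of 27457 genes (11.0%) hold it, against 6 of 23 NRF2 targets (26.1%), 2 of 14 CAR targets (14.3%) and 0 of 8 AhR targets. These shares are a description, since a match is not a binding site. The 150 bases before the start are printed for Gsta3 (chr9:31154839-31154988, + strand) and Ephx1 (chr13:95263118-95263267, - strand), the called CAR targets that hold a match, from 5′ to 3′ of each gene with the match in capitals.
Gsta3: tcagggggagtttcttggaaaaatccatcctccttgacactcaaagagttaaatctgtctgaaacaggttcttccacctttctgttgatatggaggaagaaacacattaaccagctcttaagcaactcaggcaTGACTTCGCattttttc
Ephx1: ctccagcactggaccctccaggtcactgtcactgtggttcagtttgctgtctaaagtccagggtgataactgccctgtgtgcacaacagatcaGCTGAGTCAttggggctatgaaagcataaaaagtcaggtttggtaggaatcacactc
In Gsta3 the match ends 9 bases before the start on the gene's strand, and in Ephx1 it ends 49 bases before the start and reads on the other strand. Each of these genes has 2 promoter windows, of which 1 holds a match in these 150 bases and is printed.

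PPARalpha targets also rose after MK-3207. Of 31 tested, 8 rose and 1 fell at 750 (median 0.37) and 7 rose and 0 fell at 600 mg/kg/day (median 0.54; 10 higher and 0 lower without replicate 4, with 6 of the 7 calls kept). Leaving out 1 rat, the number that rose ran from 5 (without any 1 of 750 mg/kg/day replicates 2 and 4) to 13 (without vehicle replicate 1) at 750 mg/kg/day. Acot1, a cytosolic acyl-CoA thioesterase, had the largest rise at 750 mg/kg/day among the genes named for that dose. It read 0.220, 0.965, 0.391 and 0.381 CPM in vehicle rats, 19.8, 33.1, 1.73 and 38.5 CPM at 750 and 14.2, 32.7, 7.82 and 17.8 CPM at 600 mg/kg/day. Replicate 3 was lowest at both doses, still above every vehicle rat. The log2 fold changes were 5.59 ± 1.00 (adjusted p = 0.0303) and 5.23 ± 0.57 (adjusted p = 0.00571), and the call at 750 held in 2 of 8 leave-one-out fits and was lost on leaving out any 1 of vehicle replicates 1, 2, 3 and 4 or 750 mg/kg/day replicates 2 and 4. Ehhadh, the peroxisomal bifunctional enzyme, read 1133, 1141, 968 and 1397 CPM in vehicle rats, 3864, 4604, 2353 and 3155 CPM at 750 and 3502, 3183, 3238 and 1871 CPM at 600 mg/kg/day. It rose by 1.59 ± 0.21 (adjusted p = 0.00897, held in 8 of 8 fits) and 1.35 ± 0.20 (adjusted p = 0.0144, lost without vehicle replicates 2 or 3). Cpt1b, a muscle-type carnitine transferase, rose by 1.91 and 1.76, Acot2 by 1.48 and 1.57, Vnn1, a pantetheinase, by 1.12 and 0.98 (at 600 0.90 ± 0.20 without replicate 4, adjusted p = 0.0531), and the peroxisomal thiolase Acaa1a by 0.92 and 1.01. The classical targets Cyp4a1 and Cyp4a3 were not called: their log2 differences were 0.25 and 0.54 at 750 and 0.39 and 0.64 at 600 mg/kg/day (adjusted p = 0.335, 0.349, 0.183 and 0.216). The member that fell at 750 mg/kg/day was Angptl4, an inhibitor of lipoprotein lipase (-0.63 ± 0.14). This call held in 2 of 8 leave-one-out fits and was lost on leaving out any 1 of vehicle replicates 2, 3 and 4 or 750 mg/kg/day replicates 1, 2 and 4.

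Of 21 hepatocyte genes tested after MK-3207, 5 fell and 0 rose at each dose (medians -0.44 and -0.49; 0 higher and 8 lower at 600 without replicate 4), and leaving out 1 rat the number that fell ran from 2 (without any 1 of vehicle replicate 2 or 750 mg/kg/day replicates 2 and 4) to 7 (without vehicle replicate 1) at 750 mg/kg/day. Ass1, a urea cycle enzyme, read 4262, 3493, 3360.5 and 3534 CPM in vehicle rats, 1838, 1399, 2040.3 and 1751 CPM at 750 and 1561, 1657, 1698 and 1048 CPM at 600 mg/kg/day. Every treated rat was below every vehicle rat, and both calls held in 8 of 8 fits (-1.06 ± 0.14 and -1.29 ± 0.17). Cps1, which opens the urea cycle, fell (-0.91 ± 0.14 and -1.10 ± 0.11), held in 8 of 8 fits at both doses. Gnmt, the glycine methyltransferase that uses up methyl groups, read 1036, 616, 677 and 722 CPM in vehicle rats, 309.9, 307, 431 and 278 CPM at 750 and 298, 328, 333 and 209 CPM at 600 mg/kg/day, again without overlap (-1.20 ± 0.19 and -1.38 ± 0.20). Hpd, of tyrosine breakdown, fell at both doses (-0.97 ± 0.15 and -0.96 ± 0.16). Serpina1, Apoc3 and Apoh fell at 750 mg/kg/day (-0.82, -0.89 and -0.59), and Tdo2, Alb and Otc at 600 (-0.86, -0.65 and -0.58).

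Of 18 acute phase genes tested after MK-3207, 0 rose and 4 fell at 750 (Hp -0.78, Apcs -0.78, Fgg -0.64 and Fga -0.62; median -0.55), and 0 rose and 1 fell at 600 mg/kg/day (Apcs -0.69). With 1 rat left out, the number that fell at 750 ran from 0 (without any 1 of vehicle replicates 2 and 4 or 750 mg/kg/day replicates 2 and 4) to 7 (without vehicle replicate 1). Macrophage markers were lower in the same rats: their summed level was 735 to 986 (median 852) CPM in vehicle rats, 504 to 726 (median 552) CPM at 750 and 526 to 642 (median 601) CPM at 600 mg/kg/day, and of 12 tested Vsig4 and C1qb fell at 750 (-0.73 and -0.59) and Vsig4 at 600 mg/kg/day (-0.73), where 4 fell without replicate 4. The part of macrophage RNA in the other results was not tested. All 14 interferon genes tested had a log2 difference below 0 at both doses (medians -0.55 and -0.76), with 0 called by edgeR, 6 and 8 at an unadjusted p under 0.05, and 2 and 4 called by DESeq2, all lower. ER chaperones lay below vehicle at 750 mg/kg/day in all 18 members (median -0.54), with 0 called by edgeR, 15 at an unadjusted p under 0.05 and 8 called by DESeq2. At 600 mg/kg/day 1 fell, Edem1 (-0.86 ± 0.16). The latter call held in 2 of 8 leave-one-out fits and was lost on leaving out any 1 of vehicle replicates 2, 3 and 4 or 600 mg/kg/day replicates 1, 2 and 3.

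Further genes with the largest changes after MK-3207, by the rule given with the processing, lay outside these groups. Cgref1, a growth regulator with EF-hand domains, read 1.32, 0.723, 0.587 and 0.980 CPM in vehicle rats, 12.2, 9.27, 3.42 and 5.95 CPM at 750 and 5.59, 9.36, 5.67 and 7.82 CPM at 600 mg/kg/day, and rose by 3.09 ± 0.42 and 2.98 ± 0.29 in 8 of 8 fits each. Cavin3, of the caveolar coat, rose by 1.43 ± 0.18 and 1.92 ± 0.16, also in 8 of 8 fits. Cttn, an actin-binding protein, rose by 2.04 ± 0.44 and 2.60 ± 0.43. Cdh17, a cadherin, read 2.31, 3.32, 0.929 and 4.30 CPM in vehicle rats, 30.4, 55.3, 22.9 and 52.5 CPM at 750 and 136, 20.0, 2.93 and 40.3 CPM at 600 mg/kg/day. It rose at 750 (3.90 ± 0.45, adjusted p = 0.00897) and was too spread for a call at 600 mg/kg/day (adjusted p = 0.103). Ugt1a2 rose at 750 mg/kg/day (2.90 ± 0.37). Of the genes that fell, Slc41a3, a magnesium transporter, read 12.3, 6.69, 4.26 and 7.24 CPM in vehicle rats, 2.18, 1.04, 2.21 and 2.58 CPM at 750 and 2.13, 0.604, 1.37 and 0.782 CPM at 600 mg/kg/day, without overlap (-1.93 ± 0.35 and -2.63 ± 0.43). Acmsd, a branch enzyme of tryptophan breakdown, fell at both doses (-1.64 and -2.28), as did Akr1c1 (-1.64 and -1.97), Ppp1r3b, which targets a phosphatase to glycogen (-1.09 and -1.56), and Abcc9 (-1.33 and -1.21).

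At 750 mg/kg/day Thrsp, a lipogenic regulator, read 20.2, 22.3, 28.5 and 13.9 CPM against 72.9, 62.0, 110.2 and 58.8 CPM in vehicle rats and fell (-1.84 ± 0.25, held in 8 of 8 fits). At 600 mg/kg/day it read 21.6, 30.5, 21.6 and 117 CPM, the highest value being that of replicate 4, and differed by -0.67 ± 0.57 (adjusted p = 0.596) with this rat and by -1.62 ± 0.25 (adjusted p = 0.0165) without it. Stac3, Dusp1 (a MAP kinase phosphatase), Zfp189, Gne (of sialic acid synthesis) and Tifa fell at 750 mg/kg/day, with log2 fold changes of -2.65, -1.51, -1.44, -1.40 and -1.40. At 600 mg/kg/day the receptor kinase family member Ephb6, Cbln3, the calcium pump Atp2b2 and the class I molecule RT1-CE10 fell, with log2 fold changes of -1.64, -1.42, -1.40 and -1.47. RT1 genes are near-identical copies and differ between strains, so this value is uncertain.

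The 2 doses of MK-3207 were compared directly, the only pair of treated groups that shared study, strain and vehicle. Of 12630 genes, 1 was higher and 0 were lower at 750 than at 600 mg/kg/day (0.00792% called by edgeR; 1126 had an unadjusted p under 0.05, and DESeq2 called 33 higher and 33 lower). The called feature, RF00002, is a ribosomal RNA family entry, and without 600 mg/kg/day replicate 4 it was lost and 0 of 12762 were called (1216 at an unadjusted p under 0.05). Gsta3 differed by -0.29 ± 0.22 (95% interval -0.80 to 0.21), Abcc3 by 0.023 ± 0.45 (-1.03 to 1.08), Ugt1a6 by -0.32 ± 0.22 (-0.82 to 0.17) and Ass1 by 0.23 ± 0.18 (-0.16 to 0.62). For Cyp1a1 the interval ran from -2.53 to 1.01 and for Acot1 from -1.50 to 2.21, so these intervals hold differences of more than 1 log2 unit in either direction.

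After telcagepant at 400 mg/kg/day 296 of 12681 genes rose (2.33%) and 312 fell (2.46%), with a median log2 difference of 0.0054 over all genes. This count moved with single rats: it ran from 64 (without vehicle replicate 3) to 1091 (without telcagepant replicate 1) when 1 rat was left out, and with RIN as a term in the fit 22 genes were called, among the genes named here Cyp2b1, Cyp2b2, Acot3, Cyp4a3 and Cib2. RIN was 8.53 to 8.99 in the vehicle rats and 8.44 to 8.67 in the telcagepant rats. With telcagepant replicates 1 and 4 alone, 691 rose and 678 fell, among them 541 of the 608. Genes of fat oxidation and of the Cyp2b family were lower, and genes of cholesterol synthesis, ER folding and the acute phase were higher.

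Cyp2b1 read 202, 98.1, 114 and 121 CPM in the vehicle rats and 2.53, 0.386, 0.374 and 1.43 CPM after telcagepant, the largest fall among the called genes (log2 fold change -6.83 ± 0.67, adjusted p = 0.00340). The call held in 8 of 8 leave-one-out fits. Cyp2b2 read 149, 113, 31.5 and 62.2 CPM and 3.50, 1.16, 0.997 and 1.94 CPM, without overlap (-5.55 ± 0.62, adjusted p = 0.00697), and this call also held in 8 of 8 fits. With replicates 1 and 4 alone the folds were -6.08 ± 0.47 and -5.02 ± 0.87. Aldh1a1 fell (-3.10 ± 0.59). That call held in 3 of 8 leave-one-out fits and was lost on leaving out any 1 of vehicle replicates 1, 2, 3 and 4 or telcagepant replicate 2. Of 13 CAR targets tested 0 rose and 3 fell (median -0.49). The rest were not called, with log2 differences of 1.65 for Gsta3, 0.36 for Abcc3, -0.61 for Ephx1, -0.10 for Gstm1, 0.98 for Por, -0.68 for Cyp2c6v1, -0.49 for Cyp2c7, -0.57 for Alas1, 0.034 for Aldh1a7 and 3.46 for Gadd45b.

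Among 10 PXR targets 1 rose and 2 fell (median -0.02). Cyp3a9, a cytochrome that is higher in female rats, read 17.7, 12.6, 8.70 and 3.23 CPM in vehicle and 78.0, 30.5, 241 and 131 CPM in telcagepant rats (3.52 ± 0.71). This call held in 4 of 8 leave-one-out fits and was lost on leaving out any 1 of vehicle replicates 1, 2, 3 and 4. Cyp3a62 fell (-2.32 ± 0.24, held in 8 of 8 fits), and so did Abcc2, the canalicular pump of conjugated bilirubin (-1.08 ± 0.18). The uncalled members differed by 1.09 (Cyp3a23/3a1), -0.59 (Cyp3a18), -0.011 (Ugt1a1), -0.030 (Slco1a4), -0.019 (Gsta2), 1.37 (Ces2a) and 3.09 (Cyp2c24). The male-predominant Cyp2c11 read 1395, 1232, 1281 and 1189.9 CPM in vehicle and 199.8, 298, 34.7 and 216 CPM in telcagepant rats and fell (-2.77 ± 0.54). The latter call held in 4 of 8 leave-one-out fits and was lost on leaving out any 1 of vehicle replicates 1, 2, 3 and 4. Of 7 AhR targets 0 rose and 1 fell, Lrat (-1.55), and Cyp1a1 read 1.51, 2.65, 0.0623 and 2.34 CPM against 0.572, 0.402, 0.679 and 0.230 CPM in vehicle rats (adjusted p = 0.176).

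PPARalpha targets fell after telcagepant: of 31 tested, 18 fell and 0 rose (median -1.92). With replicates 1 and 4 alone 24 fell and 1 rose (median -1.59), without vehicle replicate 1 10 fell, and leaving out 1 rat the number that fell ran from 4 (without vehicle replicate 3) to 22 (without telcagepant replicate 3). Their summed level was 18960.0 to 25460.0 (median 21320.0) CPM in vehicle and 2196 to 6457 (median 5420.0) CPM in telcagepant rats. Vnn1 read 144, 157, 233 and 259 CPM in vehicle and 15.2, 8.25, 2.12 and 10.3 CPM in telcagepant rats, all 4 treated rats far below (-4.47 ± 0.56, held in 8 of 8 fits). Ehhadh read 1022, 1273, 1439.8 and 2234 CPM and 182, 102, 9.48 and 204 CPM (-3.58 ± 0.78). This call held in 3 of 8 leave-one-out fits and was lost on leaving out any 1 of vehicle replicates 1, 2, 3 and 4 or telcagepant replicate 2. Acot1 read 2.96, 9.58, 12.1 and 11.9 CPM and 0, 0.0483, 0.0623 and 0.971 CPM (-5.06 ± 0.97). Pex11a, of peroxisome division, Acot3 and Ech1, an isomerase of fat oxidation, fell, with log2 fold changes of -3.12, -3.07 and -3.06. The omega-hydroxylases Cyp4a1 and Cyp4a3, uncalled after MK-3207, fell as well (-2.45 ± 0.27 and -2.41 ± 0.23) and held in 8 of 8 fits.

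Cholesterol synthesis genes rose: of 26 tested, 8 rose and 0 fell (median 1.60), and 17 rose with replicates 1 and 4 alone. Leaving out 1 rat the number ran from 4 (without any 1 of vehicle replicates 1, 2, 3 and 4) to 14 (without telcagepant replicate 3). Their summed level was 1866 to 2091 (median 1977) CPM in vehicle and 3766 to 7325 (median 5511) CPM in telcagepant rats, without overlap. Sqle, squalene epoxidase, read 8.06, 9.64, 5.49 and 12.3 CPM and 53.8, 61.6, 128 and 154 CPM (log2 fold change 3.48 ± 0.42, adjusted p = 0.00830), and the call held in 8 of 8 leave-one-out fits. The SREBP regulator Insig1 and the synthesis enzymes Idi1, Fdps and Lss rose by 3.28, 2.91, 2.76 and 2.23. Among 17 fatty acid synthesis genes 3 rose and 1 fell: Pnpla3 (5.23), Thrsp (2.92) and Fasn, fatty acid synthase (2.79), rose and the desaturase Fads2 fell (-2.76). Each of the 4 calls was lost without vehicle replicates 3 or 4. Pnpla3 was low even after telcagepant, at 5.31 CPM in replicate 2 and 0.604 to 1.20 CPM in the other rats. Cyp8b1, which sets the cholic acid share of bile acids, fell (-3.14 ± 0.59), as 1 of 2 among 21 bile acid genes, with Abcc2.

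ER chaperones rose: of 18 tested, 7 rose and 0 fell (median 0.80), and 13 rose with replicates 1 and 4 alone. Leaving out 1 rat the number ran from 2 (without any 1 of vehicle replicates 2, 3 and 4) to 9 (without telcagepant replicate 3). Hspa5, the chaperone that senses unfolded protein, read 727, 574, 593 and 519 CPM in vehicle and 1246, 1417, 2765 and 1229 CPM in telcagepant rats, without overlap (log2 fold change 1.46 ± 0.30, adjusted p = 0.0333). Its call held in 3 of 8 leave-one-out fits and was lost on leaving out any 1 of vehicle replicates 1, 2, 3 and 4 or telcagepant replicate 2. Hyou1, its exchange factor, read 126, 88.3, 93.4 and 89.7 CPM and 364, 307, 324 and 316 CPM (1.72 ± 0.19, held in 8 of 8 fits). Manf, Dnajb9, Creld2, Dnajb11 and Hsp90b1 rose by 1.89, 1.67, 1.54, 1.39 and 0.76. The ER stress response element, the site of ATF6 and NF-Y, consists of CCAAT and CCACG with 9 bases of any kind between them. Searched on both strands in the same 250 bases, it lies before 21 of 27457 genes (0.0765%), among them 7 of 15 ER chaperones with a RefSeq promoter (46.7%): Hspa5, Hsp90b1, Creld2, Canx, Xbp1, Dnajc3 and Calr. The element was described from such genes, so this share is no independent finding. The 150 bases before the start are printed for the 3 of these that rose, Hspa5 (chr3:38452866-38453015, + strand), Hsp90b1 (chr7:23012294-23012443, - strand) and Creld2 (chr7:121789234-121789383, + strand), with the element in capitals.
Hspa5: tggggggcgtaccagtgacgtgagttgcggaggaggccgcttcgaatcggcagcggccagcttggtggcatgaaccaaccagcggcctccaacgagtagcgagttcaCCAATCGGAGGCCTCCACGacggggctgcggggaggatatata
Hsp90b1: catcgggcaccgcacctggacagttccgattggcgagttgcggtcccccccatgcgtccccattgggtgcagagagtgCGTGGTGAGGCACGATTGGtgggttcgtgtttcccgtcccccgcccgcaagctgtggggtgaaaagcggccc
Creld2: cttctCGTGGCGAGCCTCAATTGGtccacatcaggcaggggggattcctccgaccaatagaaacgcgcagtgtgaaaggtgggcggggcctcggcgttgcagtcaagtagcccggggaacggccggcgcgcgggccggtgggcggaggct
The printed element ends 25, 54 and 127 bases before the start, on the gene's strand in Hspa5 and on the other strand in Hsp90b1 and Creld2. Hsp90b1 holds a further match beyond the printed bases, on the gene's strand, which ends 158 bases before the start.

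Of 19 ATF4 stress genes tested 3 rose, Slc7a11, Atf4 and Psph (median 2.01 with all 4 rats and 0.51 with replicates 1 and 4 alone). With replicates 1 and 4 alone 3 were also called higher, Atf4 and Psph among them, and without vehicle replicate 1 0 were called (edgeR; 12 at an unadjusted p under 0.05). Slc7a11, the cystine importer, read 0, 0.402, 0.0309 and 0.230 CPM in vehicle and 0.604, 16.4, 37.0 and 0.914 CPM in telcagepant rats (6.41 ± 1.53). That call held in 2 of 8 leave-one-out fits and was lost on leaving out any 1 of vehicle replicates 1, 2, 3 and 4 or telcagepant replicates 2 and 3. The amino acid carriers Slc7a1 and Slc1a4 showed the same split: 3.50, 83.0, 122 and 3.60 CPM and 13.6, 437, 374 and 17.5 CPM after telcagepant against 0.676, 1.00, 0.833 and 0.856 CPM and 9.61, 4.22, 3.02 and 4.65 CPM. With replicates 1 and 4 alone the log2 differences were 2.25 ± 0.98 for Slc7a11 (adjusted p = 0.189), 2.08 ± 0.29 for Slc7a1 (adjusted p = 0.00611), 1.55 ± 0.42 for Slc1a4 (adjusted p = 0.0689) and 1.40 ± 0.19 for Hmox1 (adjusted p = 0.00589). Arid5a, Sarm1, Gem and Tnfrsf12a, further genes with the largest rises, read 2.35, 176, 108 and 2.40, 8.27, 167, 73.9 and 20.1, 1.03, 22.0, 11.5 and 1.26 and 5.13, 35.9, 59.7 and 3.03 CPM, each highest in replicates 2 and 3. Their vehicle values were 0.676, 0.871, 1.60 and 0.897, 2.23, 1.47, 2.47 and 1.61, 0.260, 0.402, 0.556 and 0.334 and 1.72, 1.88, 2.13 and 2.13 CPM. Of 26 NRF2 targets 4 rose, among them Slc7a11, Hmox1 and Tkt, and 2 fell (Gclm and Abcc2), with a median of -0.09. With replicates 1 and 4 alone 5 of these 6 calls were kept, and without vehicle replicate 1 0 of the 26 were called (edgeR; 10 at an unadjusted p under 0.05). Cdkn1a, the cell cycle inhibitor, was the 1 of 15 p53 targets that rose (3.50 ± 0.82). This call held in 3 of 8 leave-one-out fits and was lost on leaving out any 1 of vehicle replicates 1, 2, 3 and 4 or telcagepant replicate 2. With replicates 1 and 4 alone Cdkn1a differed by 2.72 ± 0.76 (adjusted p = 0.0847), and the median of the p53 targets was 0.04 in place of 0.98. The calls of Arid5a, Gem, Tnfrsf12a, Hsd17b2, Socs3, Cdk1 and Kif2c were also lost with these 2 rats alone.

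Acute phase genes rose after telcagepant: of 18 tested, 7 rose and 0 fell (median 1.54), 9 rose and 1 fell with replicates 1 and 4 alone, and 0 were called without vehicle replicate 1. Over the leave-one-out fits the number that rose ran from 0 (without any 1 of vehicle replicates 1, 2, 3 and 4) to 11 (without telcagepant replicate 1). Orm1, an acid glycoprotein of plasma, read 275, 181, 168 and 164 CPM in vehicle and 724, 755, 4232 and 2311 CPM in telcagepant rats, without overlap (3.35 ± 0.60). Socs3, a feedback inhibitor of cytokine signalling, and the fibrinogen chains Fgg and Fga rose by 3.44, 2.23 and 2.10, and Itih4 and Hp by 1.74 and 1.48. Cxcl1, a chemokine that attracts neutrophils, read 0.416, 0.134, 0.432 and 0.918 CPM and 8.57, 44.5, 115 and 23.1 CPM (log2 fold change 6.51 ± 0.92, adjusted p = 0.0117; lost without vehicle replicate 3). Osmr, the oncostatin M receptor, read 2.70, 2.41, 2.78 and 3.82 CPM and 11.0, 15.8, 124 and 39.7 CPM (4.01 ± 0.76). Its call held in 4 of 8 leave-one-out fits and was lost on leaving out any 1 of vehicle replicates 1, 2, 3 and 4. In the same rats the neutrophil markers, of which 4 of 12 were tested and 0 called by edgeR (3 at an unadjusted p under 0.05, 1 called by DESeq2), summed to 3.36 to 4.69 (median 3.47) CPM in vehicle and 5.61 to 280.1 (median 13.0) CPM in telcagepant rats. All 4 members tested had a log2 difference above 0 (median 1.68), and the sums of the groups did not overlap. The neutrophil list includes Lcn2, which is also on the acute phase list, so these sums do not measure neutrophils alone. The part of Lcn2 in them was not separated. The granule genes Mpo and Elane lay near the limit of a count of 0 and do not stand for the list. After telcagepant Mpo was at 0.0604, 0.0965, 0 and 0 CPM and Elane at 0, 0.193, 0.0623 and 0 CPM. Macrophage markers summed to 631 to 1007 (median 758) and 886 to 1055 (median 957) CPM, with 1 of 12 higher, Cd163 (0.82 ± 0.19). The part of these cells in the acute phase result was not tested.

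Proliferation genes fell after telcagepant: of 25 tested, 8 fell and 0 rose (median -1.53), with summed levels of 151 to 224 (median 197) CPM in vehicle and 54.6 to 96.0 (median 73.9) CPM in telcagepant rats, without overlap. In the leave-one-out fits the number ran from 1 (without vehicle replicate 4) to 9 (without any 1 of telcagepant replicates 1 and 4). Ccnd1, the cyclin of cell cycle entry, read 94.5, 85.5, 117 and 107 CPM and 22.3, 14.2, 29.6 and 9.31 CPM (-2.42 ± 0.34, held in 8 of 8 fits). It is 1 of the 28 genes summed and made up a large part of the sum in the vehicle rats. The sum without it was not computed. The mitotic genes Ccnb1, Cdk1, Kif2c, Nusap1 and Top2a fell, with log2 fold changes of -3.66, -3.40, -3.22, -2.95 and -2.52. Among 21 hepatocyte genes Arg1, the last enzyme of the urea cycle, and Tdo2 rose (2.62 and 1.07) and Apoa1 fell (-1.22).

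The genes with the largest falls that are not yet described were Nim1k, Hsd17b2, Nox4, Adcy10, Mmd2 and Cib2. Nox4, an NADPH oxidase, read 71.8, 60.0, 88.9 and 39.7 CPM in vehicle and 1.99, 2.80, 0.0623 and 0.629 CPM in telcagepant rats (-5.54 ± 0.76). Nim1k, a kinase, read 34.9, 9.31, 23.4 and 25.4 CPM and 0.604, 0, 0.436 and 0.286 CPM (-6.16 ± 0.72), and Adcy10, the soluble adenylyl cyclase, 27.5, 52.98, 87.1 and 98.4 CPM and 1.69, 5.60, 1.18 and 0.857 CPM (-4.81 ± 0.69). These 3 calls and that of Cib2 (-4.48) held in 8 of 8 fits. Hsd17b2 read 66.0, 887, 665 and 637 CPM and 19.7, 7.53, 2.31 and 8.34 CPM (-5.89 ± 0.94), its lowest vehicle value being that of replicate 1, the rat with the other clock values. The call held in 4 of 8 leave-one-out fits and was lost on leaving out any 1 of vehicle replicates 2, 3 and 4 or telcagepant replicate 2. Mmd2 fell (-4.52 ± 0.65). The latter call held in 6 of 8 leave-one-out fits and was lost on leaving out any 1 of vehicle replicates 3 and 4.

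Genes named for 1 compound were looked up for the other. Of the genes with the largest changes after MK-3207, edgeR also called Acot1 (-5.06), Thrsp (2.92) and Slc41a3 (2.79) after telcagepant, and each of these 3 calls was lost with telcagepant replicates 1 and 4 alone. DESeq2 called Akr7a3, Cavin3, Acmsd, Ass1, Stac3 and Tifa as well. By edgeR the log2 differences were 7.09 ± 1.77 for Ugt1a2 (adjusted p = 0.0562), -3.26 ± 0.83 for Stac3 (adjusted p = 0.0591), 2.11 ± 0.54 for Cavin3 (adjusted p = 0.0593) and 0.88 ± 0.25 for Ass1 (adjusted p = 0.0756), and Gnmt differed by 0.29 ± 0.28. Of the genes named for telcagepant, Cxcl1 fell after MK-3207 at 600 mg/kg/day (-1.58 ± 0.33), a call lost in each of the 8 leave-one-out fits, and differed by -0.28 ± 0.36 at 750 mg/kg/day (adjusted p = 0.718). Adcy10 rose at 750 mg/kg/day (1.66 ± 0.34). That call held in 3 of 8 leave-one-out fits and was lost on leaving out any 1 of vehicle replicates 3 and 4 or 750 mg/kg/day replicates 1, 2 and 4. Hmox1 read 42.3, 27.5, 35.5 and 20.1 CPM in vehicle rats and 21.9, 17.4, 18.4 and 16.7 CPM at 750 mg/kg/day, and the difference missed the threshold (-0.76 ± 0.21, adjusted p = 0.0774). Slc7a11 and Slc7a1 were too low to test after MK-3207. Sqle and Hspa5, which rose after telcagepant, differed by -0.061 and -0.78 at 750 and 0.65 and -0.57 at 600 mg/kg/day, none called.

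**Figure D3:**
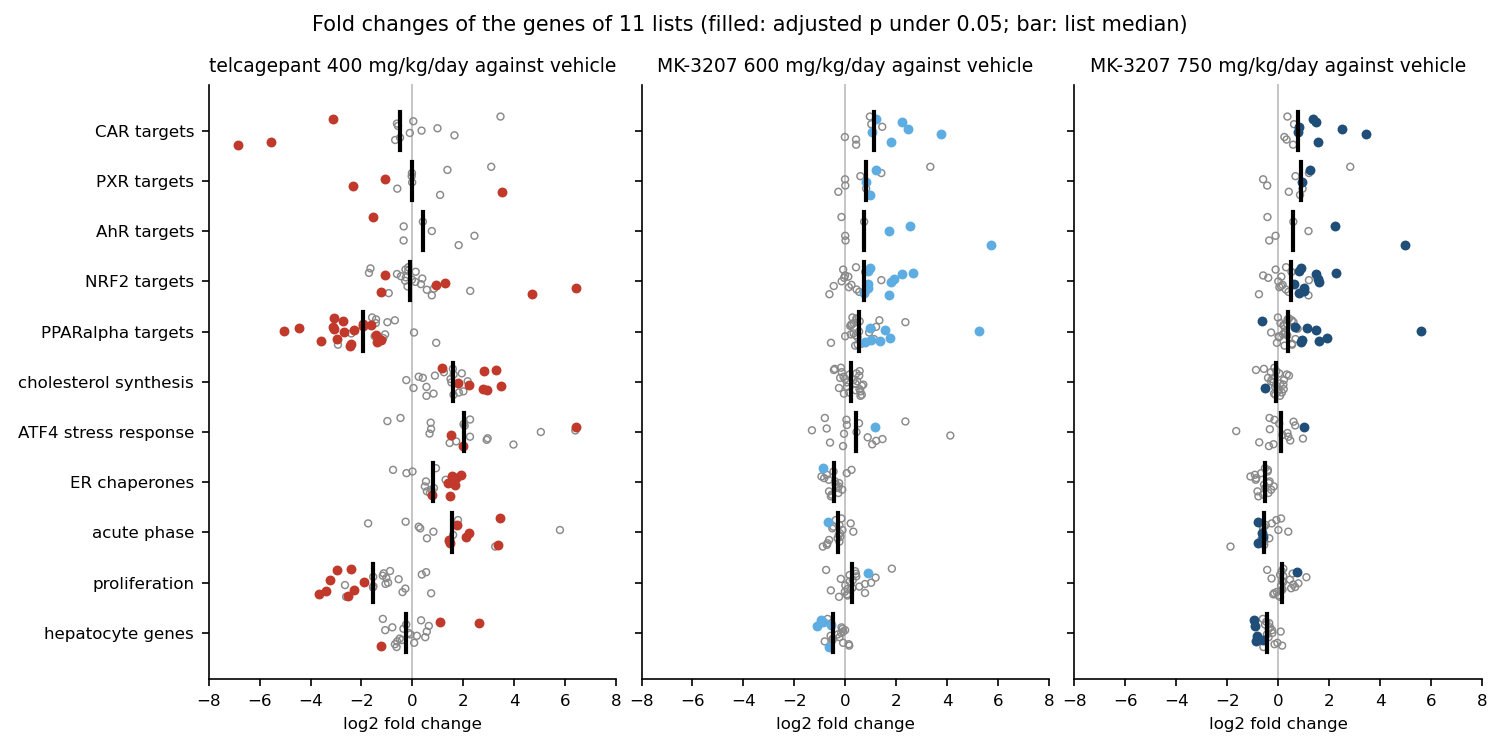
Each row is 1 gene list, each point 1 gene tested, and the horizontal axis is the log2 fold change against vehicle for telcagepant 400 and MK-3207 600 and 750 mg/kg/day; filled points have an adjusted p under 0.05 (edgeR) and bars are list medians. The median of the PPARalpha targets is -1.92 after telcagepant and 0.37 at 750 mg/kg/day of MK-3207, and that of the cholesterol synthesis genes is 1.60 and -0.09.

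Set side by side, 48 genes were called after both telcagepant and MK-3207 at 750 mg/kg/day, which is 8.25% of the 582 telcagepant calls and 12.6% of the 381 MK-3207 calls among genes tested in both. Of these, 8 were higher after both, 4 lower after both, 23 lower after telcagepant and higher after MK-3207, and 13 higher after telcagepant and lower after MK-3207. With 600 mg/kg/day 32 genes were shared (5.52% of 580 and 14.6% of 219), 6 higher after both, 0 lower after both and 17 and 9 in opposite directions, and without replicate 4 the shared genes were 48 (8.22% of 584 and 13.9% of 346). With telcagepant replicates 1 and 4 alone, 92 were shared with 750 mg/kg/day (6.93% of 1327 and 24.1% of 382), of which 36 and 21 went in opposite directions. The 23 genes include the fat oxidation genes Acot1, Acot2, Ehhadh, Acaa1a, Pex11a and Vnn1, together with Cyp2b2, Aldh1a1 and Fads2. For Acot1 the log2 fold change was -5.06 after telcagepant and 5.59 after MK-3207, for Cyp2b2 -5.55 and 1.57, and for Ehhadh -3.58 and 1.59. As given above, the calls of Acot1 and Cyp2b2 at 750 mg/kg/day and of Ehhadh after telcagepant were lost in most leave-one-out fits. The 13 genes include Thrsp (2.92 and -1.84), Slc41a3 (2.79 and -1.93), the acute phase genes Hp, Fga and Fgg, and the clock repressor Cry1 (1.63 and -0.61). The telcagepant calls of Acot1, Thrsp and Slc41a3 were lost with telcagepant replicates 1 and 4 alone. The genes higher after both, named outside the rule for named genes and after their values were seen, include Tkt, of the pentose phosphate pathway (1.28 after telcagepant and 0.62 after MK-3207), Dhdds, Copg1, Cltb, Chpf, Chpf2 and Dhx29. The genes lower after both were Igf1, the liver-made growth factor (-1.09 and -0.87), Angptl4, Crym and Sult1c3.

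**Figure D4:**
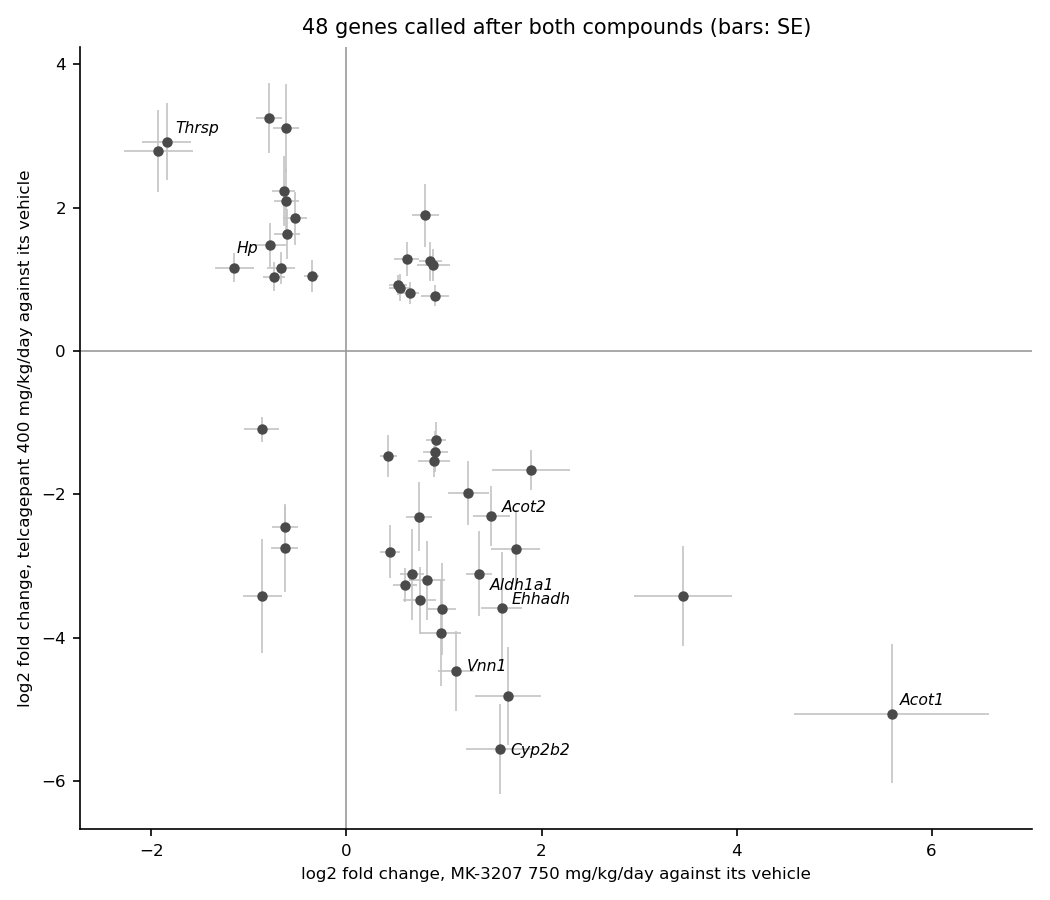
Each point is 1 of the 48 genes called after both compounds; the horizontal axis is the log2 fold change for MK-3207 at 750 mg/kg/day and the vertical axis that for telcagepant, each against its own vehicle, with bars of 1 SE. The lower right quadrant holds 23 genes and the upper left 13, against 8 and 4 in the quadrants of equal direction.

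The vehicle levels from which these changes start also differed. For this comparison CPM was scaled with TMM factors over all male vehicle rats of the series, so the means differ from those of the values given above. In the telcagepant study Cyp2b1 averaged 123 CPM in vehicle rats, with 20 of the 38 other vehicle groups of male Sprague Dawley rats above it. Vnn1 averaged 182 CPM, above all 38 (range 5.75 to 173 CPM), and so did Adcy10 (61.0 CPM; range 1.07 to 36.2 CPM). Cxcl1, Orm1, Hp, Gnmt, Lss, Creld2 and Ppp1r3b were below all 38. Orm1 averaged 181 CPM against 216 to 907 CPM. The part of the vehicle in the telcagepant results was not tested. In the MK-3207 study Akr1c1, which fell, averaged 80.5 CPM in vehicle rats, above all 41 other vehicle groups of male Han Wistar rats, and Cttn, which rose, was below all 41 (1.44 CPM). Abcc3 averaged 2.90 CPM, with 40 of 41 above it, and Gsta3 6.01 CPM, with 27 above it.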

How the data were processed

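Bulk liver RNA was sequenced from TruSeq Stranded mRNA libraries, per the labels' protocols. The authors deposited expected counts per gene, and 87.0% of the non-zero values in the 20 libraries used here were whole numbers. Per the submitters' processing notes the genome build was Rnor_6.0. Which aligner and counting tool were used is not given in the sources used here. Depth was 14.9 to 44.6 M counts per library (M for mega).

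The expected counts were rounded to whole numbers. The row of the whole Ugt1a locus was dropped and its 10 transcript rows were kept, and 365 columns of the table were not used. Groups came from the labels, and each rat had 1 library. In edgeR 4.0.16 (R 4.3.3), genes were filtered with filterByExpr, scaled with TMM and tested by robust quasi-likelihood fits of the groups compared only, and p-values were adjusted over every gene tested. This code was tested on simulated data. Alternatives were another scaling (RLE), DESeq2 1.42.0, no filter on low counts, a minimum log2 fold change of 1, a RefSeq-based count table of the authors, RIN as a covariate, a single fit of 5 groups, and leaving out each rat. Promoter sequences are from RefSeq, build GRCr8, and no coordinates of the counting build are given.

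Strain-separating genes were those whose vehicle medians differed at least 2-fold with the 5th to 95th percentiles of the strains apart and a median of at least 1 CPM in the higher strain, clock genes left out. Named genes were, per comparison, the 10 largest rises and falls among called genes with at least 5 CPM in the higher group and no overlap, every member of the CGRP, CAR and PXR lists, and up to 6 members of each other list. The 31 lists hold 493 genes, of which 459 were matched by symbol. Members and lists were chosen with earlier results of these data known. Results for some genes are not reported here.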

Additional observations from a re-analysis of the deposited data

Results flagged for a closer look

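For each gene named here, the highest and the lowest rat of each group of 4 was compared with its nearest neighbour. A rat is listed where that gap, as a share of the group's whole range, passed Dixon's 95% critical value for 4 values. For each gene, groups whose highest rat was under 1 CPM were not examined. Chance alone lists about 1 in 20 groups, and here 57 of 726 were listed (7.85%). No explanation of these values was tested.

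In the vehicle group of the telcagepant study 11 of 148 genes had such a rat (7.43%). Acmsd and Ramp1 were highest in replicate 1, at 9.82 and 6.50 CPM against 2.14 to 3.42 and 4.41 to 4.62 CPM in the other rats. Hyou1 and Orm1 were highest in replicate 1, at 126 and 275 CPM against 88.3 to 93.4 and 164 to 181 CPM in the other rats. Arntl was highest in replicate 1, at 40.4 CPM against 1.00 to 4.63 CPM in the other rats. Alas1 was lowest in replicate 1, at 194 CPM against 389 to 424 CPM in the other rats. Ephx1 and Thrsp were highest in replicate 2, at 1094 and 78.4 CPM against 497 to 571 and 16.2 to 21.4 CPM in the other rats. Adm2 was highest in replicate 2, at 1.88 CPM against 0.0309 to 0.156 CPM in the other rats. Aen was highest in replicate 3, at 22.3 CPM against 15.8 to 16.1 CPM in the other rats. Gsta2 was lowest in replicate 4, at 65.9 CPM against 117 to 127 CPM in the other rats.

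In the telcagepant group 14 of 144 genes had such a rat (9.72%). Aox1 was highest in replicate 1, at 492 CPM against 73.6 to 132 CPM in the other rats. Pnpla3 and Cdkn1a were highest in replicate 2, at 5.31 and 90.1 CPM against 0.604 to 1.20 and 15.4 to 23.2 CPM in the other rats. Phlda3 and Nfil3 were highest in replicate 2, at 34.5 and 390.2 CPM against 6.34 to 11.0 and 81.3 to 116 CPM in the other rats. Ugt1a2 and Tifa were highest in replicate 3, at 950.1 and 97.2 CPM against 8.17 to 28.1 and 4.83 to 13.9 CPM in the other rats. Adm and Adm2 were highest in replicate 3, at 2.43 and 18.8 CPM against 0.571 to 0.845 and 0.686 to 2.08 CPM in the other rats. Hspa5 and Manf were highest in replicate 3, at 2765 and 406 CPM against 1229 to 1417 and 168 to 184 CPM in the other rats. Aldh1a1 and Alb were lowest in replicate 3, at 6.98 and 30220.0 CPM against 53.4 to 62.1 and 66400.0 to 73080.0 CPM in the other rats. Otc was lowest in replicate 3, at 75.9 CPM against 316 to 346 CPM in the other rats.

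In the vehicle group of the MK-3207 study 11 of 145 genes had such a rat (7.59%). Ramp1 and Apoc3 were highest in replicate 1, at 8.64 and 3655 CPM against 4.90 to 5.18 and 1963 to 2188 CPM in the other rats. Serpina1 and Tdo2 were highest in replicate 1, at 16290.0 and 2081 CPM against 12460.0 to 12820.0 and 1457 to 1517 CPM in the other rats. Hpd was highest in replicate 1, at 3583 CPM against 2418 to 2592 CPM in the other rats. Mmd2 and Cyp1a2 were lowest in replicate 1, at 9.85 and 1298 CPM against 20.3 to 22.0 and 1975 to 2023 CPM in the other rats. Ugt1a6 was highest in replicate 2, at 19.8 CPM against 10.3 to 11.3 CPM in the other rats. Dusp1 was lowest in replicate 2, at 126 CPM against 208 to 223 CPM in the other rats. Arntl was highest in replicate 3, at 58.5 CPM against 50.1 to 51.3 CPM in the other rats. Cib2 was highest in replicate 4, at 7.19 CPM against 0.990 to 1.96 CPM in the other rats.

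In the MK-3207 group at 600 mg/kg/day 16 of 145 genes had such a rat (11.0%). Apcs was lowest in replicate 1, at 438 CPM against 605 to 629.7 CPM in the other rats. Me1 and Cyp4a1 were highest in replicate 2, at 86.3 and 1101 CPM against 72.7 to 73.7 and 904 to 928 CPM in the other rats. Cyp8b1 was highest in replicate 3, at 1271 CPM against 719 to 802 CPM in the other rats. Hsd17b2 and Adcy10 were highest in replicate 4, at 623 and 82.7 CPM against 30.8 to 35.9 and 11.5 to 17.6 CPM in the other rats. Vnn1 and Thrsp were highest in replicate 4, at 177 and 117 CPM against 139 to 145 and 21.6 to 30.5 CPM in the other rats. Aldh1a7 and Lrat were highest in replicate 4, at 37.2 and 36.1 CPM against 0.0494 to 0.201 and 14.7 to 17.5 CPM in the other rats. Pex11a and Fads2 were highest in replicate 4, at 214 and 651 CPM against 86.2 to 103 and 176 to 201 CPM in the other rats. Ccnd1 and Itih4 were highest in replicate 4, at 55.1 and 3422 CPM against 7.76 to 11.6 and 2087 to 2294 CPM in the other rats. Dbp and Cd163 were highest in replicate 4, at 179 and 42.0 CPM against 7.86 to 8.18 and 27.9 to 30.0 CPM in the other rats.

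In the MK-3207 group at 750 mg/kg/day 5 of 144 genes had such a rat (3.47%). Tifa was highest in replicate 1, at 4.98 CPM against 2.00 to 2.34 CPM in the other rats. Tdo2 was highest in replicate 3, at 1645 CPM against 999 to 1062 CPM in the other rats. Gsta3 and Acot2 were lowest in replicate 3, at 50.3 and 87.8 CPM against 74.0 to 75.8 and 162 to 169.9 CPM in the other rats. Gadd45b was highest in replicate 4, at 12.6 CPM against 3.65 to 4.89 CPM in the other rats.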

How the results depend on the processing

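No named gene that was called in a comparison with vehicle changed direction under the alternatives computed for single genes (RLE factors, DESeq2, no count filter, the fold minimum, RIN, 1 fit of all 5 groups, each rat left out, and telcagepant replicates 1 and 4 alone). Directions of single genes were not compared for the RefSeq-based table or between the doses. After telcagepant the 608 calls became 2164 with DESeq2, 22 with RIN as a covariate, 3936 in 1 fit of all 5 groups and 1369 with telcagepant replicates 1 and 4 alone. Leaving out 1 rat gave 64 (without vehicle replicate 3) to 1091 (without telcagepant replicate 1), and leaving out any rat but telcagepant replicate 3 moved the count by over 1.5 times. At 600 mg/kg/day of MK-3207 the 222 calls became 766 with DESeq2, 76 with a log2 fold change of at least 1 and 47 in the fit of 5 groups. With 1 rat left out it was 45 (without vehicle replicate 2) to 612 (without vehicle replicate 1), each of the 8 moving the count by over 1.5 times. At 750 mg/kg/day the 388 calls became 1133 with DESeq2, 101 with the fold minimum, 818 with RIN and 34 in the fit of 5 groups. Over the leave-one-out fits it was 94 (without 750 mg/kg/day replicate 4) to 1371 (without vehicle replicate 1), and leaving out any rat but 750 mg/kg/day replicate 3 moved the count by over 1.5 times. Between the doses the 1 call became 66 with DESeq2 and 0 with the RefSeq-based table, with RIN and in the fit of 5 groups, and ran from 0 to 3 when 1 rat was left out. The causes were not tested. Of 80 named genes called after telcagepant, 0 lost their call with RLE factors, 0 with DESeq2, 75 with RIN, 0 in the fit of 5 groups and 1 to 62 when 1 rat was left out. Of 50 named genes called at 600, 0 lost their call with RLE factors, 0 with DESeq2, 6 with RIN, 29 in the fit of 5 groups and 3 to 30 when 1 rat was left out. Of 66 named genes called at 750 mg/kg/day, 0 lost their call with RLE factors, 0 with DESeq2, 5 with RIN, 52 in the fit of 5 groups and 7 to 36 when 1 rat was left out. DESeq2 gave no adjusted p for 2 named genes after telcagepant, 4 at 600 and 1 at 750 mg/kg/day. These genes were left out of the DESeq2 counts and directions. Under a single setting, 0 to 16 named genes of a comparison changed sign while uncalled both times. No paired analysis was possible because the labels give no replicate numbers, and those used here only follow the order of the samples. At the depth of these libraries a count of 0 allows up to 0.0673 to 0.201 CPM, which limits what can be said of genes near that level.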

Other observations

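Hspb1, a small heat shock protein, read 11.8, 23.5, 19.9 and 16.5 CPM in the MK-3207 vehicle rats, 67.4, 40.1, 50.2 and 9.87 CPM at 600 and 25.2, 88.3, 60.1 and 92.8 CPM at 750 mg/kg/day. The 750 group lay above all vehicle rats and 600 mg/kg/day replicate 4 lay below them. Hspb1 rose at 750 (log2 fold change 1.89 ± 0.40, adjusted p = 0.0443), a call that held in 1 of 8 leave-one-out fits, without 750 mg/kg/day replicate 1. At 600 mg/kg/day it was called without replicate 4 (adjusted p = 0.0166) and not with it (adjusted p = 0.253, edgeR). It fell after telcagepant, from 11.6, 10.6, 16.7 and 8.03 CPM to 4.65, 2.94, 2.99 and 4.23 CPM (-1.66 ± 0.28, adjusted p = 0.0199). This call held in 6 of 8 fits and was lost without vehicle replicates 2 or 3. It was the 1 heat shock gene called in each of these comparisons, of 13 tested. Of 14 p53 targets, 3 rose at 750 mg/kg/day, Phlda3 (0.72 ± 0.14), Ccng1 (0.62 ± 0.12) and Aen (0.45 ± 0.10), and 0 at 600 (edgeR; 4 at an unadjusted p under 0.05, and DESeq2 called 1). The 3 calls held in 2, 2 and 1 of 8 leave-one-out fits, and each was lost without vehicle replicates 2, 3 or 4 or 750 mg/kg/day replicates 2 or 4.

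Slc3a2, the heavy chain of several amino acid carriers, was the 1 ATF4-related gene that edgeR called at either dose of MK-3207 with all rats. Without 600 mg/kg/day replicate 4 edgeR called 4, all higher, and DESeq2 called 6 higher and 1 lower at 600 and 2 higher and 3 lower at 750 mg/kg/day. Slc3a2 read 69.4, 56.5, 63.6 and 64.2 CPM in vehicle rats, 125, 156, 104 and 123 CPM at 750 and 120.3, 142, 169 and 134 CPM at 600 mg/kg/day, without overlap (1.00 ± 0.13 and 1.16 ± 0.12), and both calls held in 8 of 8 leave-one-out fits. Tk1, a thymidine kinase of S phase, was the 1 proliferation gene that edgeR called at either dose of MK-3207 with all rats (0.74 ± 0.16 at 750 and 0.89 ± 0.16 at 600 mg/kg/day). Its calls held in 1 and 3 of 8 fits, and both were lost without vehicle replicates 2, 3 or 4. DESeq2 called 2 proliferation genes at each dose, and edgeR called 3 at 750 mg/kg/day without vehicle replicate 1. The desaturase Fads2 and the elongase Elovl5, which build polyunsaturated fatty acids, rose at 750 mg/kg/day (1.74 ± 0.25 and 1.09 ± 0.23), and Cyp27a1, of bile acid synthesis, fell (-0.54 ± 0.11). These calls held in 8, 1 and 2 of 8 fits. Nfil3, a clock-linked repressor, rose after telcagepant (2.69 ± 0.60). This call held in 3 of 8 leave-one-out fits and was lost on leaving out any 1 of vehicle replicates 1, 2, 3 and 4 or telcagepant replicate 2.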
